A study of Homo sapiens with 12 samples.

Results

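Of the 10926 genes with a mean level of at least 5 CPM (a gene's count divided by the total count of its library, times 1e6), 403 were lower with the PPARγ agonist rosiglitazone (RGZ) than with vehicle in each of 3 experiments on A375 cells. In 221 of these 403 genes (54.8%), less than 25% of this decrease was left when the antagonist T0070907 was given together with RGZ. These 221 genes, 2.02% of the genes at that level and taken from a table of 23705 genes, are described here as the members. They were chosen on the log2(CPM + 0.5) scale by 3 criteria, namely the mean level, RGZ minus vehicle at -0.3 or lower in every experiment, and a mean of RGZ plus T0070907 minus vehicle that lay closer to 0 than 25% of the RGZ difference, or above 0. The decrease with RGZ and its absence in the combination are therefore how the genes were picked, and are given as a description without a test. The other 182 of the 403 genes, in which more of the decrease was left, served as the nearest comparison.

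A375 is an established line of human metastatic melanoma cells. All cells were grown in DMEM with 10% serum and received DMSO as vehicle, 5 μM RGZ, 2 μM T0070907 or 5 μM RGZ together with 2 μM T0070907 in DMSO, for 24 h. There were 12 libraries, with 1 library per condition in each of 3 independent experiments, and RNA of technical replicates had been pooled within an experiment, so that the replicate is the experiment on this cell line. Libraries held 8319455 to 11375227 counts in total, and 3 counts, taken as the detection floor for counting error, equalled between 0.264 and 0.361 CPM. The pigment cell transcription factors *SOX10* and *MITF* were present in every vehicle library (lowest values 209.6 and 32.9 CPM), whereas *TYR* had a count of 0 in all libraries and *MLANA*, *DCT*, *KIT* and *TYRP1* stayed under 1 CPM in the vehicle libraries, so these cells had the regulators but hardly any mRNA of the pigment enzymes.

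PPARγ is a nuclear receptor that binds DNA together with a retinoid X receptor. An agonist such as RGZ makes the pair raise the transcription of genes of lipid storage and oxidation, and ligand-bound receptor can also lower the transcription of other genes, often without binding next to them. T0070907 binds the ligand pocket of PPARγ covalently and stops agonists from acting through it. Melanocytes arise from the neural crest, a population of migrating embryonic cells that also forms the glia of peripheral nerves, and melanoma cells often express neural crest and glial genes next to or in place of the pigment genes.

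The members ranged from the smallest decreases the criteria allow to a mean difference of -1.39 under RGZ, on the log2(CPM + 0.5) scale. The difference was -1 or lower in 26 members, between -1 and -0.5 in 135 and above -0.5 in 60, with a median of -0.62 against -0.05 over all 10926 genes. In the combination the median difference from vehicle was -0.03 for the members, and 90 of the 221 (40.7%) were above vehicle on average. The 10 members with the lowest values were *FOXD3*, *IL17RD*, *NGFR*, *OLFML2A*, *NFATC2*, *EFEMP1*, *AFAP1L2*, *TMEM200A*, *GJB1* and *FREM1*, from -1.39 to -1.18. Of the members, 215 were protein-coding genes, 5 were long noncoding RNAs and 1 was a transcribed pseudogene, and 10 lay on the X chromosome.

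**Figure D1:**
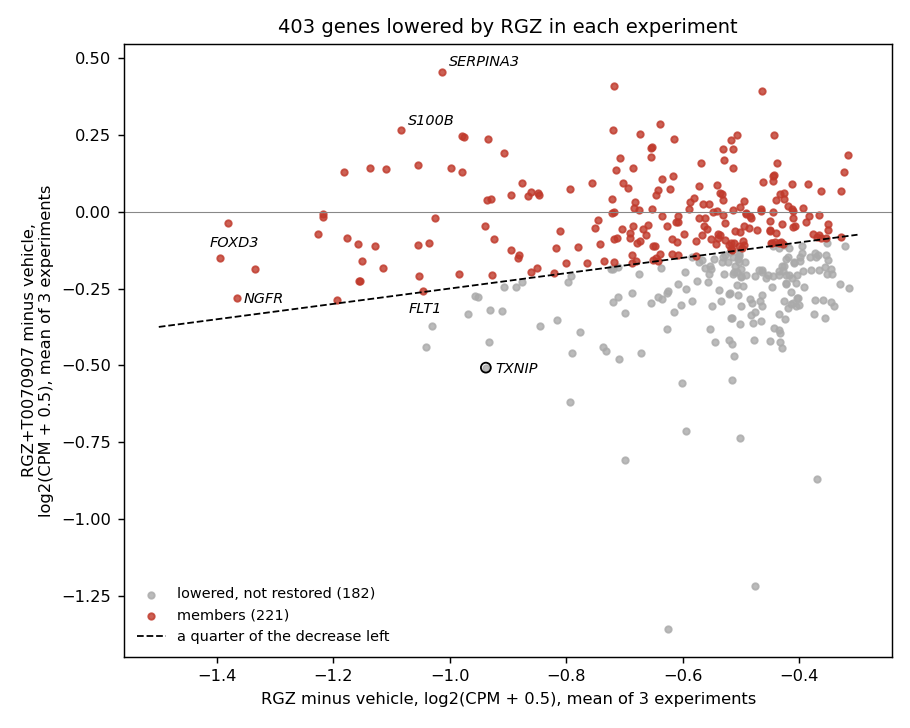
RGZ minus vehicle (x axis) against RGZ+T0070907 minus vehicle (y axis), both as differences in log2(CPM + 0.5) averaged over 3 experiments, for the 403 genes lowered by RGZ in each experiment. The 221 members lie above the dashed line, where 25% of the decrease is left, and the 182 other genes, *TXNIP* among them, lie below it.

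The members included genes known from the neural crest, glia and pigment cells, which are described together here. *FOXD3*, a forkhead transcription factor that specifies the neural crest, had 8.52, 3.37 and 9.04 CPM under vehicle in experiments 1, 2 and 3, 1.92, 1.56 and 3.17 under RGZ, 9.62, 4.80 and 11.7 under T0070907, and 8.78, 2.36 and 8.66 under the combination. All 3 RGZ libraries lay below all 3 vehicle libraries, and the combination lay on both sides of vehicle. *FOXD3* was a low gene, with 14 to 133 counts per library, and experiment 2 had the lowest value under each condition. *NGFR*, the low-affinity nerve growth factor receptor that marks neural crest-like melanoma cells, had 227, 95.4 and 279 CPM under vehicle, 124, 22.2 and 125 under RGZ, 252, 133 and 267 under T0070907, and 205, 75.5 and 218 under the combination. RGZ was below vehicle within every experiment, but the groups overlapped, because experiment 2 was far lower than the others throughout. *NGFR* kept 20.5% of its decrease in the combination and was below vehicle there in all 3 experiments.

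*S100B*, a calcium-binding protein used as a marker of glia and melanoma, had 23.7, 15.3 and 38.9 CPM under vehicle, 9.92, 6.44 and 21.3 under RGZ, 34.3, 19.8 and 66.6 under T0070907, and 33.3, 16.6 and 44.4 under the combination. Every experiment gave the same order, with RGZ lowest and T0070907 highest, while the groups overlapped because experiment 3 was above experiment 1 and experiment 1 above experiment 2 in each condition. *ERBB3*, the neuregulin receptor that Schwann cells and melanocytes depend on, had 224, 133 and 333 CPM under vehicle, 142, 79.8 and 239 under RGZ, 257, 175 and 380 under T0070907, and 188, 149 and 294 under the combination. Its values repeated the order of the experiments, and the RGZ value was again the lowest within each experiment. *MC1R*, the melanocortin receptor, had 27.5 ± 3.26 CPM under vehicle, 20.6 ± 3.14 under RGZ, 29.1 ± 4.51 with T0070907 and 27.5 ± 2.89 with the combination (SD, n = 3 each). *GJB1*, a gap junction protein of myelinating cells, had 9.29 ± 4.52 CPM under vehicle and 4.33 ± 3.33 under RGZ (SD, n = 3 each), and its combination values of 12.5, 4.18 and 16.0 CPM lay above, below and above the vehicle values of 7.71, 5.77 and 14.4 CPM. *MITF* itself was lower with RGZ in each experiment but was not a member, with a mean of -0.40 for RGZ and -0.11 for the combination, and *SOX10*, with -0.20 for RGZ, did not meet the criterion on the RGZ difference. The other lineage genes at this level were not lower by the criterion either, with RGZ differences of 0.13 for *PAX3*, a paired-box factor of the neural crest, 0.02 for the endothelin receptor *EDNRB*, 0.00 for *RAB27A* of melanosome transport and -0.09 for *S100A1*.

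**Figure D2:**
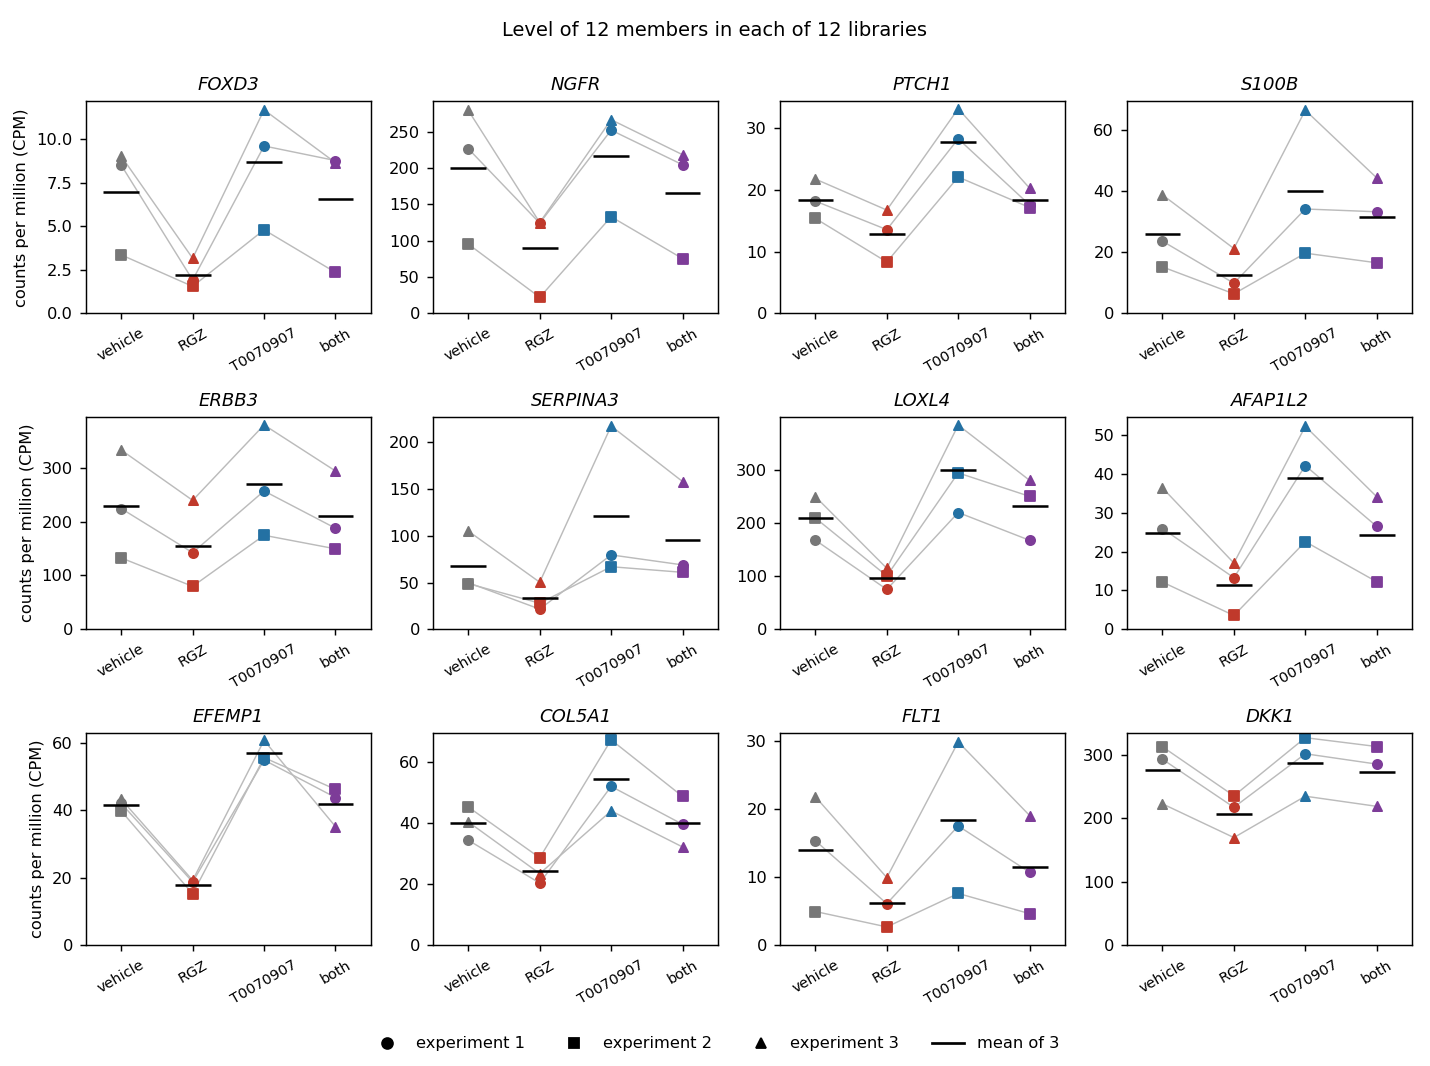
Level in CPM (y axis from 0) of 12 members under the 4 conditions (x axis, "both" being RGZ+T0070907). Symbols mark the experiment, grey lines join libraries of the same experiment and black bars are means of 3. Within each experiment RGZ is the lowest of the 4 conditions for every gene shown, while the experiments differ widely in level for *NGFR*, *S100B*, *ERBB3* and *FLT1* and little for *EFEMP1*.

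Among transcription factors, the AP-2 family was present with 3 members, *TFAP2A*, *TFAP2B* and *TFAP2C*, which act in the neural crest, the epidermis and melanocytes. *TFAP2B* had 34.5, 9.50 and 71.9 CPM under vehicle and 21.1, 5.89 and 46.7 under RGZ, and the difference was almost the same in each experiment, with -0.65 ± 0.04 (log2, SD, n = 3). The combination gave 36.8, 13.1 and 72.2 CPM for *TFAP2B*, above vehicle in every experiment. *TFAP2A* differed by -0.72 ± 0.06 under RGZ and by -0.09 ± 0.20 in the combination, and *TFAP2C* by -0.43 ± 0.16 and -0.10 ± 0.07 (log2, SD, n = 3 each). *SOX11* and *SOX12*, SOXC factors of neural progenitors, differed by -0.68 ± 0.25 and -0.43 ± 0.15 under RGZ and by -0.16 ± 0.15 and 0.06 ± 0.21 in the combination. *NFATC2*, a calcineurin-dependent factor, had 66.1, 25.2 and 109 CPM under vehicle and 28.7, 8.78 and 53.5 under RGZ, so that each RGZ value was less than the vehicle value of its experiment although the groups overlapped.

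Nuclear receptors that bear on PPARγ itself were among the members. *RXRG*, the retinoid X receptor with the most restricted expression, had 6.22, 3.85 and 14.7 CPM under vehicle, 1.82, 2.00 and 6.44 under RGZ, 9.15, 4.07 and 20.5 under T0070907, and 7.0, 2.04 and 14.1 under the combination. In experiment 2 its combination value was at the RGZ value, with 19 and 18 counts. *PPARA*, the receptor of fatty acid oxidation, varied little between experiments and had 8.17, 9.26 and 8.68 CPM under vehicle, 6.08, 6.0 and 6.64 under RGZ, 10.6, 12.4 and 10.0 under T0070907, and 8.07, 9.11 and 8.34 under the combination. Its RGZ and T0070907 libraries overlapped neither with vehicle nor with each other, and the combination differed from vehicle by -0.03 ± 0.02 (log2, SD, n = 3). *VDR*, the vitamin D receptor, had 50.5 ± 2.98 CPM under vehicle, 36.8 ± 1.60 under RGZ, 56.4 ± 5.72 with T0070907 and 47.2 ± 5.72 with the combination (SD, n = 3 each).

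The promoters of a few of these genes are shown for the letters that PPAR and SOX proteins recognise. RefSeq promoter sequences, from 250 bases before to 50 bases after the gene start on GRCh38.p14, were matched to 173 of the 221 members. The counts themselves were made on hg19. Capitals mark AGGTCA, the core that nuclear receptors bind, or ACAAAG, the core that SOX factors bind, on either strand. *FOXD3* (chr1:63322317-63322616 on the plus strand) is shown as the member with the lowest RGZ difference, *RXRG* (chr1:165445077-165445376 on the minus strand) as the partner receptor, and *AFAP1L2* (chr10:114404453-114404752 on the minus strand) and *SERPINA3* (chr14:94612141-94612440 on the plus strand) as members that were also higher with T0070907 alone.
FOXD3 promoter: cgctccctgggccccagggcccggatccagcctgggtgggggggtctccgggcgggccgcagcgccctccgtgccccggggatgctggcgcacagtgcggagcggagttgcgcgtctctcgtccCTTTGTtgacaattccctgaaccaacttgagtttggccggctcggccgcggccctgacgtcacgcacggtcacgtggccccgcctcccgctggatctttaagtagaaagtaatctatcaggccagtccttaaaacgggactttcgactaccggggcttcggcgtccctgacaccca
RXRG promoter: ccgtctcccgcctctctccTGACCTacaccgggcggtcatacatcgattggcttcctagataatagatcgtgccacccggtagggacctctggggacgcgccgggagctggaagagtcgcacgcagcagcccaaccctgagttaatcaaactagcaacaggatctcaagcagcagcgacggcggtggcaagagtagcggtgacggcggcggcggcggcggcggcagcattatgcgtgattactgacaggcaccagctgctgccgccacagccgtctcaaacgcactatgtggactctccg
AFAP1L2 promoter: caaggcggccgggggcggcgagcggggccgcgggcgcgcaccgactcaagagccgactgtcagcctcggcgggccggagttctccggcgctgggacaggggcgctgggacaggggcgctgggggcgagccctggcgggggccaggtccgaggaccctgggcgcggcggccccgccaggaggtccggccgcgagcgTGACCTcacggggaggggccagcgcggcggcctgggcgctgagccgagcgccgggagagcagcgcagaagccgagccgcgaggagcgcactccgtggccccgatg
SERPINA3 promoter: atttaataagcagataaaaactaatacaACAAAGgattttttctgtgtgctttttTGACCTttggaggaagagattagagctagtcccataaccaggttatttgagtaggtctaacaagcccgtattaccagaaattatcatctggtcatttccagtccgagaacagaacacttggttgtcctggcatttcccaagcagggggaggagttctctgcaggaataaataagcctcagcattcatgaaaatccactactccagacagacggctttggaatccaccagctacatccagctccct
*FOXD3* held 1 SOX match, beginning 126 bases before the gene start, *RXRG* and *AFAP1L2* held 1 receptor match each, 231 and 55 bases before it, and *SERPINA3* held 1 of each, 222 and 195 bases before it.

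Across the members, AGGTCA was present in 13 of 173 promoters (7.51%), against 6.38% of the 141 promoters of the lowered genes that were not restored, 9.25% of 8997 promoters of the 10926 genes and 13.9% of all 27305 promoters. The direct repeat with 1 base between the cores (DR1), the element that PPARγ and its partner bind, was present in 0 of the 173, 0 of the 141 and 3 of the 8997. ACAAAG was present in 29 of 173 (16.8%), against 6.38% of the 141, 10.1% of the 8997 and 16.0% of all promoters. GCCNNNGGC, the AP-2 pattern, was in 36.4% of the members' promoters, 28.4% of the 141 and 32.4% of the 8997. In the same order, GGGCGG was in 68.2%, 65.2% and 71.9%, TATAAA in 7.51%, 10.6% and 4.93%, CATGTG in 6.94%, 7.80% and 6.27%, and CACGTG in 4.05%, 9.22% and 10.6%. Each was searched on both strands, DR1 matches also count for AGGTCA, and a match is a description of letters only. The median GC content of the promoters was 64.7% for the members and 65.7% for the 8997.

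Receptors and signalling genes formed a further group. *IL17RD* (SEF) and *SPRY1*, feedback inhibitors of growth factor signalling, were lower with RGZ by 1.38 ± 0.37 and 0.88 ± 0.24 on the log2 scale (SD, n = 3 each). Of 27 listed output genes of the MAP kinase pathway at this level, 1 was a member, *SPRY1*. The median RGZ difference of these 27 was 0.05, and 4 were at least 0.3 higher with RGZ in each experiment. *IL17RD* had 8.40, 18.6 and 7.97 CPM under vehicle, 2.53, 5.67 and 3.86 under RGZ, 10.2, 20.9 and 11.5 under T0070907, and 8.07, 19.5 and 7.28 under the combination. Here experiment 2 was the highest, the reverse of *NGFR*, and the RGZ libraries did not overlap with vehicle. *FLT1*, a receptor of vascular endothelial growth factor, had 15.3, 4.93 and 21.8 CPM under vehicle, 6.08, 2.67 and 9.90 under RGZ, 17.5, 7.58 and 29.8 under T0070907, and 10.7, 4.61 and 19.0 under the combination. Its combination value was below vehicle in every experiment, and with 24.8% of the decrease left it was among the members nearest to the limit. *FGFR3*, a fibroblast growth factor receptor, and *EPHB3* and *EPHA7*, receptors of ephrins, differed by -0.82 ± 0.03, -1.03 ± 0.09 and -1.05 ± 0.08 under RGZ (log2, SD, n = 3 each) and by -0.20, -0.02 and -0.21 on average in the combination. *PTCH1*, the hedgehog receptor and itself a hedgehog target, had 18.2, 15.4 and 21.8 CPM under vehicle, 13.6, 8.33 and 16.7 under RGZ, 28.3, 22.1 and 33.1 under T0070907, and 17.6, 17.2 and 20.3 under the combination. All T0070907 libraries of *PTCH1* lay above all vehicle libraries, and the combination lay within the range of vehicle.

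Of the Wnt genes, *DKK1*, a secreted inhibitor, was the most abundant member per length, with 154 CPM per kb of its longest transcript in the vehicle libraries. It had 293, 313 and 223 CPM under vehicle, 218, 236 and 170 under RGZ, 302, 327 and 235 under T0070907, and 286, 313 and 219 under the combination. The experiments agreed closely on the size of its differences, with -0.41 ± 0.02 for RGZ and -0.02 ± 0.02 for the combination (log2, SD, n = 3). *DKK3* had 11 ± 1.58 CPM under vehicle and 4.66 ± 0.11 under RGZ, the receptor *FZD2* 43.2 ± 8.76 and 27.7 ± 6.13, and the ligand *WNT5A* 52.7 ± 5.10 and 36.2 ± 6.17 (SD, n = 3 each). With the combination the 3 genes were at 9.77 ± 0.47, 46.7 ± 10.0 and 49.4 ± 8.75 CPM.

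Of 30 matrix genes at this level, 3 were members, 6 were lower with RGZ and not restored, among them *FN1* (fibronectin), and 5 were at least 0.3 higher with RGZ in each experiment, namely *COL6A1*, *COL6A2*, *COL6A3*, *LAMA4* and *LAMA1*. The members among matrix and secreted proteins had the following values. *EFEMP1*, fibulin-3 of elastic and basement membrane matrix, had 42.0, 39.8 and 43.3 CPM under vehicle, 18.7, 15.2 and 19.2 under RGZ, 54.9, 55.6 and 60.7 under T0070907, and 43.8, 46.2 and 35.2 under the combination. The RGZ, vehicle and T0070907 libraries fell into 3 ranges that did not overlap, and the combination lay around vehicle. *LOXL4*, a lysyl oxidase that cross-links collagen, had 167, 209 and 249 CPM under vehicle, 74.9, 100.3 and 115 under RGZ, 219, 294 and 384 under T0070907, and 167, 250 and 280 under the combination. *COL5A1*, a fibrillar collagen chain, had 34.4, 45.3 and 40.4 CPM under vehicle, 20.4, 28.7 and 23.5 under RGZ, 52.1, 67.4 and 44.0 under T0070907, and 39.6, 48.8 and 32.2 under the combination. For both genes RGZ stood apart below vehicle, and T0070907 was above vehicle within each experiment. *COL16A1* and *COL9A3*, collagens associated with fibrils, and *MMP2*, a gelatinase, differed by -0.64 ± 0.09, -0.44 ± 0.15 and -0.42 ± 0.10 under RGZ and by -0.01 ± 0.04, 0.16 ± 0.22 and 0.02 ± 0.10 in the combination (log2, SD, n = 3 each). The member with the highest count level was *SLC26A2*, a sulfate transporter needed for proteoglycans, with 428, 333 and 526 CPM under vehicle, 247, 183 and 337 under RGZ, 401, 376 and 572 under T0070907, and 301, 384 and 456 under the combination. Its combination value lay above vehicle in experiment 2 and below it in experiments 1 and 3.

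The comparison that the selection did not contain was T0070907 alone against vehicle, although it shares the vehicle libraries with the selection. In *PDE4B*, a phosphodiesterase that breaks down cyclic AMP, T0070907 gave 8.09, 9.61 and 14.5 CPM against 5.30, 4.21 and 9.27 with vehicle, 2.23, 1.67 and 3.57 under RGZ, and 4.87, 5.36 and 6.33 with the combination. In *SERPINA3*, an acute-phase inhibitor of serine proteases, T0070907 gave 79.5, 66.9 and 217 CPM against 49.8, 48.8 and 105 with vehicle, 21.6, 27.9 and 50.3 under RGZ, and 68.8, 60.9 and 158 with the combination. In *AFAP1L2*, an adaptor of Src family kinases, T0070907 gave 42.1, 22.5 and 52.2 CPM against 25.9, 12.1 and 36.4 with vehicle, 13.3, 3.56 and 17.0 under RGZ, and 26.5, 12.2 and 34.1 with the combination. In all 3 genes T0070907 was above vehicle and RGZ below it within every experiment, and the T0070907 and vehicle libraries overlapped because of the differences between experiments.

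In edgeR's quasi-likelihood test over 13522 genes, with the experiment as a further term (the replicate block) and Benjamini-Hochberg adjustment, 21 of the 221 members rose with T0070907 alone against 0.237% of all genes tested, and 0 fell against 0.673%. At an unadjusted p under 0.05 the numbers of members were 110 higher, against 4.84% of all genes tested, and 0 lower, against 4.98%, and DESeq2 with the block called 15 members higher (20 genes in all) and 0 lower (96 in all). The 21 members made up 65.6% of the 32 genes called higher; of the 182 lowered genes that were not restored, 3 were called. The log2 fold change was 0.77 ± 0.15 for *PDE4B* (SE, adjusted p = 0.0194), 0.74 ± 0.11 for *SERPINA3* (0.00164), 0.67 ± 0.11 for *AFAP1L2* (0.00469), 0.59 ± 0.11 for *S100B* (0.0119) and 0.49 ± 0.06 for *LOXL4* (0.000196). DESeq2 with the block did not call *PDE4B* (adjusted p = 0.0751), *TMEM229B* (0.115), *ABAT* (0.226) or *TRIM9* (0.290), which edgeR called. Others called by edgeR were *TMEM229B*, *ABAT*, *TRIM9*, *TENT5A*, *SPON2*, *PTCH1*, *LCTL*, *EFEMP1*, *COL5A1*, *ENC1*, *GPNMB*, *KLF9*, *TENT5B*, *COL16A1* and *TMX4*, with adjusted p from 0.00893 to 0.0481. They include *ABAT*, which degrades GABA, *TRIM9*, a ubiquitin ligase of neurons, *SPON2*, a secreted matrix protein, and *GPNMB*, a melanosomal glycoprotein. Without the block, edgeR called 0 members higher (0% of all genes) and 0 lower (0.0074%), with 26 higher (1.35% of all genes) and 0 lower (1.75%) at an unadjusted p under 0.05 and 0 by DESeq2, and the adjusted p of the 21 lay between 0.808 and 1.00. With the block, leaving out experiment 3 left 0 members called (1 gene in all), and leaving out the combination library of experiment 1 gave 55 (129 genes in all, against 32). Without the block, some fold changes moved with experiment 3: without its T0070907 library they were 0.09 for *SERPINA3*, 0.03 for *ABAT* and 0.02 for *SPON2*, and without its vehicle library 1.29, 1.403 and 1.13.

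**Figure D3:**
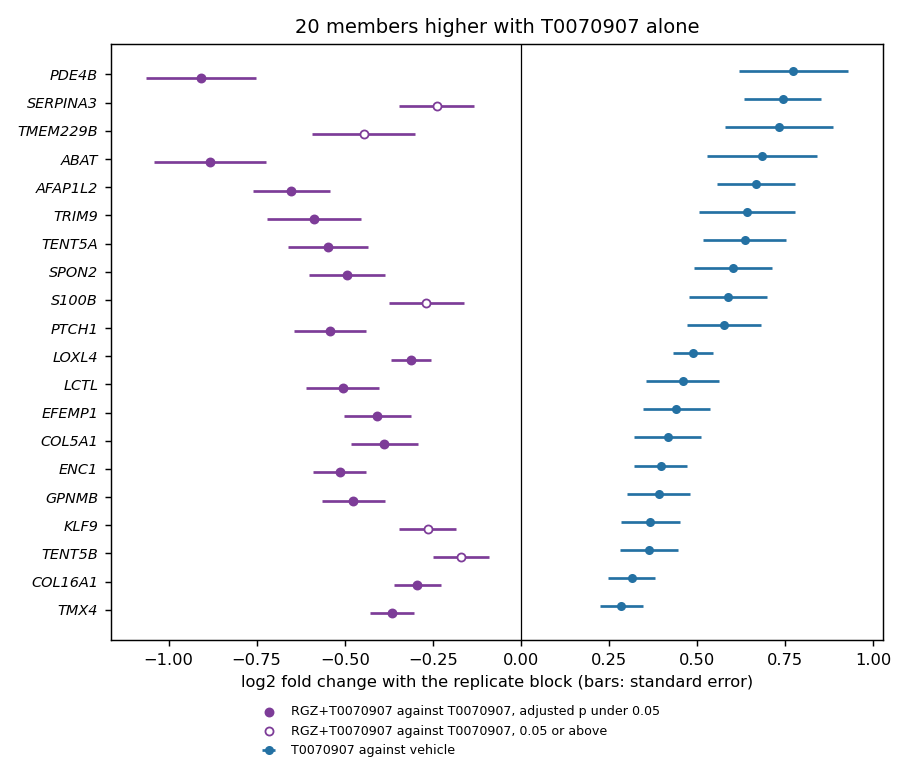
Log2 fold change (x axis) with its standard error, from edgeR with the replicate block, of 20 of the members called higher for T0070907 against vehicle (blue). In purple the same genes for RGZ+T0070907 against T0070907, filled where the adjusted p was under 0.05. The blue values lie between 0.28 and 0.77 and the purple ones between -0.91 and -0.17; the comparisons share the T0070907 libraries.

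The direction was also counted over all members. T0070907 was above vehicle in all 3 experiments in 157 of the 221 members (71.0%), against 19.5% of the 10926 genes and 39.6% of the 182 lowered genes that were not restored, and below vehicle in all 3 in 1 member, against 13.8% of the 10926 genes and 7 of the 182. All 3 T0070907 libraries lay above all 3 vehicle libraries in 24 members (10.9%), against 4.15% of the 10926 genes and 13 of the 182 (7.14%). The median difference from vehicle was 0.24 for the members, 0.12 for the 182 genes and 0.02 for all, on the log2(CPM + 0.5) scale, and per experiment it was 0.20, 0.24 and 0.24 for the members. The vehicle libraries are shared with both criteria on differences, and how much their chance values add to or take from this median was not tested. Members that did not take part included *TPM1*, an actin-binding tropomyosin and among the 5 members with the highest CPM, at -0.01 ± 0.05, *WNT5A* at 0.00 ± 0.14, *TFAP2C* at 0.00 ± 0.07 and the integrin *ITGB4* at -0.13 ± 0.14 (log2, SD, n = 3 each).

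RGZ was also compared in the presence of the antagonist, as the combination against T0070907 alone, which shares the combination libraries with the selection. *ABAT* had 6.69, 5.82 and 16.4 CPM with T0070907 and 3.56, 2.68 and 9.08 with the combination, and *FLT1* and *PDE4B* were lower in the combination within every experiment as well. With the replicate block, 45 of the 221 members (20.4%) fell against 4.22% of all genes tested, and 0 rose against 4.55%. Of the 182 lowered genes that were not restored, 80 (44.0%) fell in the same fit. The members and these genes were separated by their combination values, so this order follows from the choice. The calls and adjusted p values of the members in this comparison are also shaped by the choice and are given as a description. At an unadjusted p under 0.05 there were 102 lower, against 13.7% of all genes tested, and 0 higher, against 14.1%, and DESeq2 with the block called 27 members lower (344 genes in all) and 0 higher (538 in all). The log2 fold change was -0.91 ± 0.16 for *PDE4B* (SE, adjusted p = 0.00274), -0.88 ± 0.16 for *ABAT* (0.00403), -0.65 ± 0.11 for *AFAP1L2* (0.00245), -0.64 ± 0.14 for *SLC6A10P* (0.0138) and -0.63 ± 0.11 for *FLT1* (0.00274). *SLC6A10P* is a pseudogene of a creatine transporter with near-identical copies, so its counts are uncertain. Without the block edgeR called 0 members in either direction, against 0% of all genes lower and 0.037% higher, with 23 lower (7% of all genes) and 0 higher (7.99%) at an unadjusted p under 0.05, and DESeq2 called 0 in either direction. With the block, leaving out experiment 3 left 0 members called (3 genes in all).

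The direction of this comparison over the members was as follows. The combination was below T0070907 in all 3 experiments in 141 members (63.8%), against 32.9% of the 10926 genes, and all 3 combination libraries were below all 3 T0070907 libraries in 29 members (13.1%), against 14% of all genes. The median was -0.24 for the members and -0.05 for all genes. For the 182 genes that were not restored these values were 88.5%, 34.6% and -0.37, but members and these genes were separated by their combination values, so this order follows from the choice and is given as a description only. *PTN*, a heparin-binding growth factor, and *ITGB4* were members whose combination was on average not below T0070907, at 0.10 ± 0.15 and 0.03 ± 0.21 (log2, SD, n = 3 each).

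**Figure D4:**
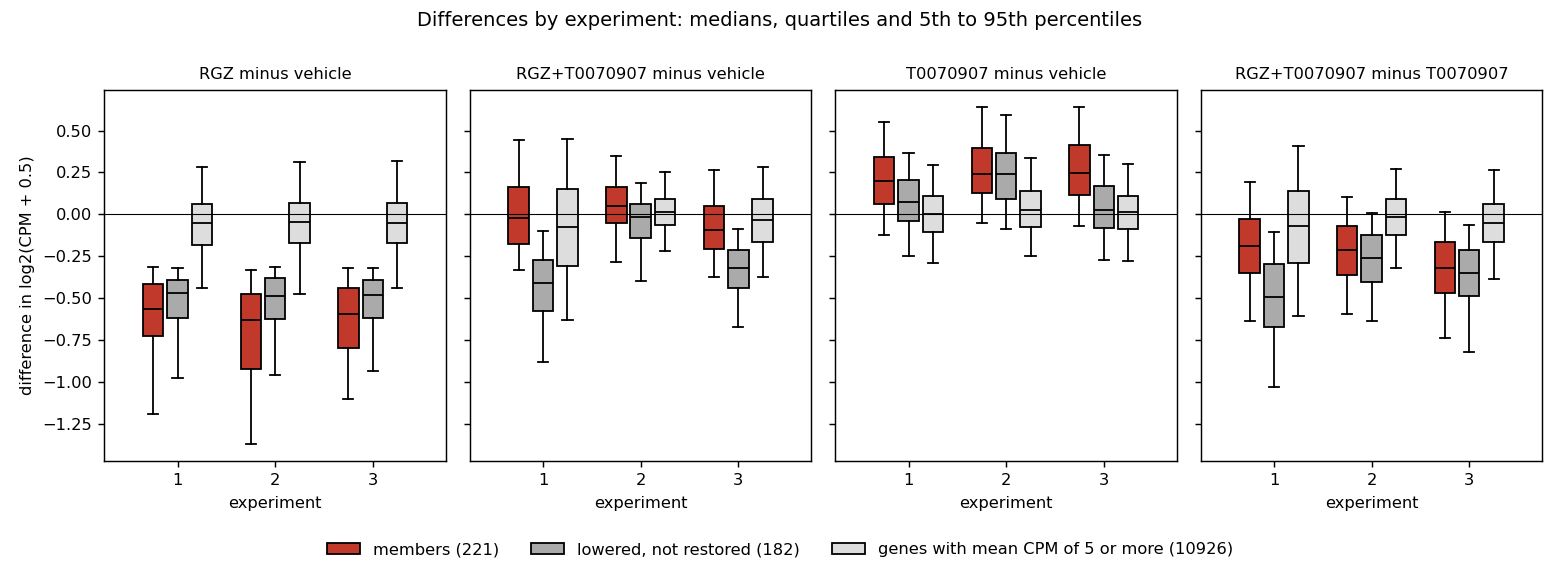
Differences in log2(CPM + 0.5) (y axis) in experiments 1, 2 and 3 (x axis) for the 221 members (red), the 182 lowered genes that were not restored (grey) and all 10926 genes (light grey). Boxes give the median and quartiles and whiskers the 5th to 95th percentiles. The members are above the other lowered genes in the combination in experiments 1 and 3, whereas in experiment 2 both lie around 0.

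To read the same measures in libraries that took no part in the choice, the criteria were applied to each pair of experiments and the genes were then read in the experiment left out. The pairs gave 367, 199 and 319 genes for experiments 1, 2 and 3 left out, respectively. In the experiment left out, RGZ minus vehicle had a median of -0.43, -0.56 and -0.50, and it was below 0 in 97.8%, 97.0% and 96.2% of the genes, against 62.2%, 60.7% and 61.4% of all 10926. The combination minus vehicle had a median of -0.06, 0.02 and -0.09, against -0.08, 0.01 and -0.03 over all 10926 genes. For the lowered genes not restored by the same choice it was -0.29, 0.04 and -0.24. In experiment 2 this measure therefore did not separate them from the chosen genes. T0070907 minus vehicle had a median of 0.18, 0.25 and 0.21 and was above 0 in 83.7%, 89.9% and 86.2% of the genes, against 50.6%, 57.0% and 53.6% of all. For the lowered genes that were not restored by the same choice, the median was 0.10, 0.22 and 0.04 and 74.0%, 86.9% and 58.6% were above 0, so in experiment 2 they were close to the chosen genes. The mean level was computed over all 12 libraries, so that criterion alone used the experiment left out.

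**Figure D5:**
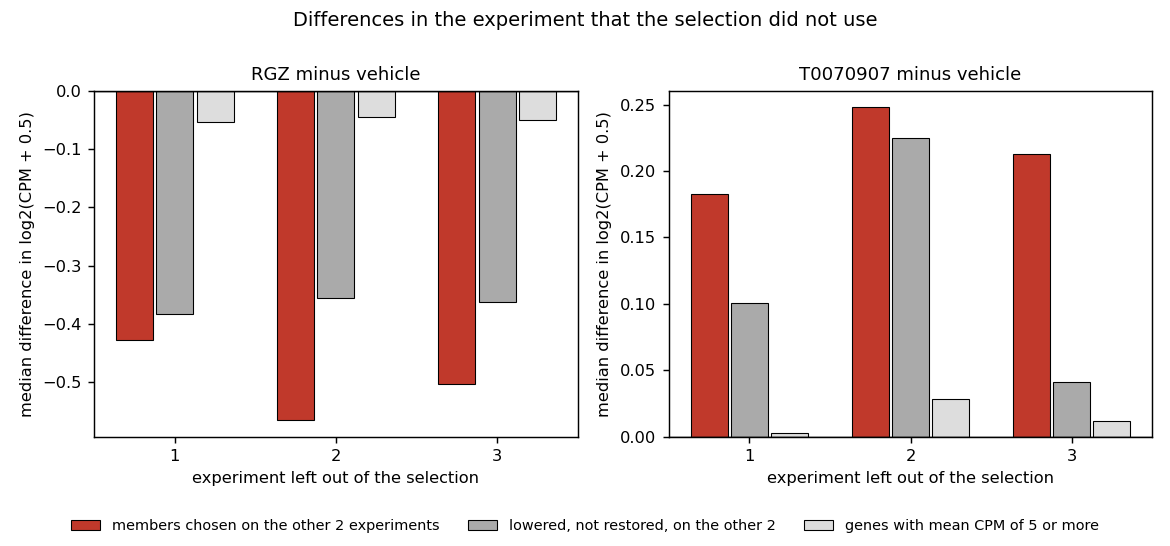
Median difference in log2(CPM + 0.5) (y axis) for RGZ minus vehicle (left) and T0070907 minus vehicle (right) in the experiment (x axis) that the selection did not use. The genes chosen on the other experiments (red) have medians from -0.56 to -0.43 for RGZ and from 0.18 to 0.25 for T0070907, and the lowered genes not restored (grey) lie closest to them for T0070907 in experiment 2.

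The criterion on the RGZ difference was set in each experiment and that on the share left on the mean of the experiments, so the share of the decrease left could vary from one experiment to another. Over the members, 3.34%, -5.59% and 16.6% of the decrease was left in experiments 1, 2 and 3 (medians), and 164, 202 and 143 of the 221 met the criterion on the share left within that experiment. Over the 182 other genes, 79.4%, 3.87% and 61.2% was left, and 136 of them (74.7%) met the criterion in experiment 2 against 15 and 17 in experiments 1 and 3. All combination libraries bore on the line between the sets: leaving out that of experiment 1, 2 or 3 kept 192, 160 or 208 of the 221 members among 259, 166 or 239 genes. The combination library of experiment 1 also stood apart over all genes, with 5th and 95th percentiles of its difference from vehicle at -0.63 and 0.45 against -0.22 and 0.25 in experiment 2. Across genes this difference had a Spearman rank correlation of -0.62 with transcript length and 0.48 with GC content in experiment 1, of 0.06 and -0.19 in experiment 2, and of -0.52 and 0.20 in experiment 3 (10844 genes of a library pair, no independent replicates). The members were shorter and richer in GC than the 182 genes, with medians of 3735 against 5849 nt and 52.5% against 44.6%, and all 10926 genes had 3759 nt and 47.9%. After a correction of each library for GC content and length, chosen after seeing the data, 156 of the 218 members with known values still met all criteria and 168 still met that on the RGZ difference, 87 of 180 others still met that criterion and 29 of the 180 became members, and the median of T0070907 minus vehicle was 0.21 for the members and 0.10 for the others.

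How far the level moved between experiments under vehicle, which the criteria did not use, is given as a description. The SD of log2(CPM + 0.5) over the 3 vehicle libraries had a median of 0.29 for the members, 0.23 for the 182 lowered genes that were not restored and 0.13 for all 10926 genes, and it was over 0.5 in 29.9%, 13.2% and 3.73% of them. The vehicle level was highest in experiment 3 in 131 members, in experiment 2 in 77 and in experiment 1 in 13, against 80, 41 and 61 of the 182 genes and 3082, 4042 and 3802 of the 10926. It was lowest in experiment 2 in 108 members, 109 of the 182 and 4367 of the 10926. *NFATC2*, *ERBB3* and *TFAP2B* were highest in experiment 3 and lowest in experiment 2, whereas *ITGB4*, with 46.7, 159 and 35.8 CPM, and *IFIT1*, an interferon-induced gene with 5.41, 12.5 and 5.71 CPM, were highest in experiment 2. The members had a lower level than all genes, with a median of 20.8 against 42.3 CPM, and the 182 others had 25.1 CPM. The part of count level in this spread was not tested.

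By function, 42 of the 221 members were in one or more of 40 gene lists, and 179 were in none. At a mean level of 5 CPM or more, members were 4 of 10 genes of the melanocyte and glial lineage (*ERBB3*, *S100B* and *MC1R* among them), 4 of 11 Wnt genes (*DKK1*, *WNT5A*, *FZD2*, *DKK3*) and 5 of 20 genes of dedifferentiated melanoma (*NGFR*, *WNT5A*, *TFAP2B*, *TFAP2A*, *NRG1*), against 2.02% of all genes. Members were also 6 of 37 genes on a list of transcription factors, 3 of 20 receptor tyrosine kinases, 3 of 30 matrix genes and 4 of 42 axon guidance genes. The list of transcription factors was a selection that left out members such as *FOXD3*, *TFAP2B* and *NFATC2*. Its share is therefore not that of all transcription factors. With the block, where 0.237% of all genes tested were called higher and 0.673% lower, T0070907 raised 2 of 12 tested genes of the lineage list, *S100B* among them, and lowered 0. It raised 2 and lowered 1 of 35 tested matrix genes, and it raised 0 and lowered 0 of 13 Wnt genes and of 22 genes of dedifferentiated melanoma. Of 43 tested genes on the list of transcription factors it raised 1, *KLF9*, and lowered 3, *KLF5*, *KLF10* and *KLF4*. It raised 1 and lowered 0 of 28 genes on the list of receptor tyrosine kinases and of 53 axon guidance genes. In each of these lists the gene raised was no member and had a mean level under 5 CPM. On the kinase list it was *BMX*, which is not a receptor. The lists of S phase, mitosis, ribosomal proteins and respiratory chain had 30 genes each at that level and 0 members. Of 26 PPAR target genes, such as fatty acid handling genes, 0 were members and 14 were at least 0.3 higher with RGZ in each experiment, and with T0070907 alone 9 of 32 tested fell and 0 rose with the block. Without the block 1 gene was called lower and 0 higher among all 13522, so nearly all of these list calls rest on the block.

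Smaller numbers came from other lists. *BAMBI*, a decoy receptor of the TGF-β family, differed by -0.87 ± 0.12 under RGZ and 0.05 ± 0.07 in the combination, *CDKN1C*, an inhibitor of cyclin-dependent kinases, by -0.68 ± 0.12 and 0.01 ± 0.21, and *TRAF1*, an adaptor of TNF receptors, by -0.61 ± 0.19 and -0.14 ± 0.09 (log2, SD, n = 3 each). *SEMA6B* and *PLXNB3*, a semaphorin and a plexin of axon guidance, differed by -0.69 ± 0.24 and -0.54 ± 0.12 under RGZ. *ARHGAP18*, a regulator of the actin cytoskeleton, differed by -0.74 ± 0.11, and the growth factors *PTN* and *NRG1* by -0.52 ± 0.13 and -0.38 ± 0.09. The members *IFI6*, an interferon-induced gene, and *CTSH*, a lysosomal protease, lay near the limit on the RGZ difference with -0.37 ± 0.05 and -0.39 ± 0.10. *KRT14*, a keratin of basal epidermis, had 18.4, 11.8 and 32.8 CPM under vehicle and 10.2, 5.22 and 15.9 under RGZ, while *KRT1* and *LORICRIN* of the upper epidermis had a count of 0 in every library and the sum of 10 keratinocyte markers was 103 to 128 CPM under vehicle and 101 to 120 under RGZ. *KRT14* belongs to a family with near-identical copies, so its counts are uncertain. The sum of 10 fibroblast markers, which include the member *MMP2*, was 193 to 275 CPM under vehicle and 156 to 196 under RGZ. *MMP2*, chosen for being lower with RGZ, made up most of this sum, with 176 to 252 CPM under vehicle and 143 to 185 under RGZ.

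The members next to each limit were as follows. Just inside the RGZ limit of -0.3 in the weakest experiment were *TRIB2*, *CASP6* and *CTSH*, and just outside were *FCRLA*, *CRYZL2P* and *INKA2*, all 6 at -0.30 when rounded. Just inside the limit of 25% left were *PLPP3*, *CBX2* and *FLT1*, the last with 24.8%, and just outside were *PCDH1*, *SIDT2* and *TRIM62*, with 25.1%, 25.2% and 25.2%. Just inside the limit of 5 CPM were *RCBTB2*, *LOC158435* and *MANCR*, with 5.01, 5.14 and 5.30 CPM, and just outside *PDGFB*, *WTIP* and *CDO1*, with 4.996, 4.91 and 4.86 CPM. *PDGFB*, a growth factor of mesenchymal cells, differed by -1.47 under RGZ and by -0.20 in the combination and met the other criteria. *TXNIP*, the thioredoxin-interacting protein, was not a member: it differed by -0.94 under RGZ and by -0.51 in the combination, with 54.1% of the decrease left, and by 0.28 with T0070907 alone.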

How the data were processed

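Total RNA of A375 cells under 4 conditions in 3 independent experiments was sequenced from TruSeq libraries on an Illumina HiSeq. The authors deposited raw counts per NCBI gene number, without normalization; hg19 is named in the submitters' processing notes, and the aligner, counter, annotation and use of strand are not given in the sources used here. The table held 0 columns of other samples. Symbols, lengths and GC content came from RefSeq and GENCODE tables, and 23538 of 23705 gene numbers had a symbol. Lengths and GC content were used to describe the genes, for the rank correlations and for the correction of the libraries.

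Groups and experiment numbers came from the sample labels. CPM is the count divided by the column total and multiplied by 1e6, and differences were taken within an experiment on log2(CPM + 0.5). The members and gene lists were chosen with earlier results of these data known. Tests used edgeR 4.0.16 in R 4.3.3 (TMM, filterByExpr, quasi-likelihood, 12 libraries in 4 groups, Benjamini-Hochberg adjustment over all tested genes, threshold 0.05), without and with the experiment as a block; SE is the change over the square root of F. DESeq2 1.42.0 was an alternative. The steps were tested on simulated data. The experiment number pairs the libraries, because the labels give it as the independent experiment; deviations from condition means correlated by 0.554 on average within an experiment (0.0793 to 0.758 over 18 pairs). The common dispersion was 0.0193 without and 0.00333 with the block. The floor of 3 counts covers counting error only, while SDs cover the spread between experiments. The SEs are those of the fit with the block, so they leave out differences in level between experiments that the conditions share. For *SERPINA3* with T0070907 against vehicle the SE was 0.11 with the block and 0.51 without it.

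Named were the 10 members with the lowest RGZ difference, the 5 with the highest CPM, up to 8 in each direction called for T0070907 against vehicle, up to 5 called for the combination against T0070907, up to 3 per list by CPM, the genes next to each limit and *TXNIP*. *LOXL4*, *PTCH1*, *MC1R*, *DKK3*, *TFAP2A*, *EPHA7*, the further lineage and matrix genes that are no members, and the remaining genes called for T0070907 were named after their values were seen. A result that needs an item withheld for evaluation is not reported here.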

Additional observations from a re-analysis of the deposited data

How the results depend on the processing

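The number of members was 221, and from 197 to 227 with another pseudocount, 178 on TMM-scaled library sizes (163 of them members), 189 after GC and length correction (156 members), 164 and 321 with a mean of 10 or 1 CPM, and 322 with up to 50% left. It moved to 93 with an RGZ limit of -0.5 and to 90 with 0% left, as stricter criteria must. Leaving out an experiment from all criteria gave 199 to 367 genes, and leaving out only a combination library gave 166 to 259, lowest without experiment 2. The median of T0070907 minus vehicle over the members stayed positive, from 0.21 to 0.25 without each experiment in turn (0.21 without replicate 2) and 0.21 after GC and length correction. The median of the combination minus T0070907 stayed negative under every alternative run, from -0.26 to -0.19.

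With the replicate block, members called higher for T0070907 went from 0 to 21, or 15 with DESeq2 with the block, and members called lower for the combination against T0070907 from 0 to 45, or 27 with DESeq2 with the block. The other alternatives without the block, which included leaving out in turn each of the 6 libraries compared, gave 0 members in either direction for both comparisons. Within the block, leaving out an experiment in turn gave 0 to 19 members higher with T0070907 (1 to 37 genes in all) and 0 to 59 lower in the combination (3 to 1003 in all, the 59 beside 1003), with 0 in both cases without experiment 3. Leaving out the combination library of experiment 1 gave 55 and 54 (129 and 281 genes in all, against 32 and 570). The block fits with libraries left out and the GC and length correction were chosen after seeing the data. Among the members called with T0070907 with the block, the 8 with the largest changes kept their direction in all 104 alternative fits, of which 12, all with the block, passed the threshold. Their size did not hold: over these fits it ran from 0.02 to 1.403, with the lowest values of *SERPINA3* (0.09), *ABAT* (0.03) and *SPON2* (0.02) without T0070907 replicate 3. Members were chosen at 5 CPM or more, so genes below it are not described as members.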
